A study of Mus musculus with 12 samples.

Results

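The genes described here are the type I interferons, the interferon receptors and the kinases bound to those receptors: Ifnb1, Ifna4, Ifnar1, Ifnar2, Ifngr1, Ifngr2, Jak1, Tyk2 and Jak2. They were chosen by gene name, and all 9 were found among the 55401 genes of the count table, of which 29550 had a count in at least 1 library. All 9 passed the filter on low counts and stood among the 18183 genes tested.

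Type I interferons are small secreted proteins that cells make when DNA or RNA is sensed in the wrong place. In mice Ifnb1 and Ifna4 are known as the early members of the family, switched on by IRF factors and, for Ifnb1, NF-kB, whereas most other alpha interferons follow through Irf7. All type I interferons bind the same receptor, made of Ifnar1, which carries the kinase Tyk2, and Ifnar2, which carries Jak1. Interferon gamma binds another receptor, made of Ifngr1, which carries Jak1, and Ifngr2, which carries Jak2.

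The data are RNA-seq profiles of cells labelled B16F10, the name of an established mouse melanoma cell line, carrying the guide sgRnf19a or the control guide sgNC. Rnf19a encodes an E3 ubiquitin ligase. The 4 groups of 3 libraries each were sgRnf19a cells after 24 h of a treatment that the labels call IR and do not spell out, sgNC cells after 24 h of IR (control + IR), untreated sgRnf19a cells, and untreated sgNC cells (control). The labels say neither whether the cells are 1 clone or a pool nor whether replicates were grown separately; p-values therefore cover only library-to-library spread, which may be technical. Columns of IR-treated libraries carry no word for IR and were assigned by elimination, and these libraries are named here by column number: 1, 3 and 4 for sgRnf19a + IR, and 1, 4 and 5 for control + IR.

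The promoters of both ligand genes are shown because their letters set them apart from the other 7 members. They are the 250 bases before the RefSeq start, from RefSeq's GRCm38.p6, 5′ to 3′ on the gene's strand, with capitals for matches on either strand to AANNGAAA (the core that IRF factors bind) and to GGGANNNTCC (an NF-kB type core).
Ifnb1, chr4:88522795-88523044, minus strand: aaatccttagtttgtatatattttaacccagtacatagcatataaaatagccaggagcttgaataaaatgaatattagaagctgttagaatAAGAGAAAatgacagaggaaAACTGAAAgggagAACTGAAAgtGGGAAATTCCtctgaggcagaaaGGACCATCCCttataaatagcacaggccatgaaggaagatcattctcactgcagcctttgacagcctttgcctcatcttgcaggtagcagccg
Ifna4, chr4:88841566-88841815, plus strand: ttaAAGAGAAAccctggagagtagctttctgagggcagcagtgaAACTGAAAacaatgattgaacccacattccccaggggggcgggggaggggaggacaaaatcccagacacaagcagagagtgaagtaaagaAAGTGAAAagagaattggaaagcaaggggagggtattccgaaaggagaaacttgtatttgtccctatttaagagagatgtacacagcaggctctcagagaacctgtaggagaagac
Each ligand promoter held 3 matches to the IRF-type core, and no other member's promoter held any. In Ifnb1 they began at positions -159, -139 and -126, counted from the RefSeq start, and were closely followed by the first of 2 NF-kB type matches at -116. In Ifna4 they began at -247, -206 and -116, with no NF-kB type match. Of 32851 RefSeq promoter windows of the same length, 0.849% held 3 or more IRF-type matches, 21.3% at least 1, and 3.86% at least 1 NF-kB type match. The Ifngr2 window held 2 NF-kB type matches that overlap each other. A match is a string of letters and not a measured site.

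The members lie on 5 chromosomes, in the mm10 coordinates that the files share with GENCODE M21. Ifnb1 (chr4:88522025-88522774) and Ifna4 (chr4:88841861-88842421) lie in the interferon cluster of chromosome 4, and both genes have no intron. Ifnar2 (chr16:91372783-91405589), Ifnar1 (chr16:91485238-91507441) and Ifngr2 (chr16:91547072-91565623) lie in the same stretch of the plus strand of chromosome 16. Ifngr1 lies at chr10:19591949-19610229, Jak1 at chr4:101152367-101265282, Tyk2 at chr9:21104068-21131243 and Jak2 at chr19:29251828-29313080. Of the 37-base words of the Ifna4 transcript, 11.2% also occur in Ifna6, which had 0 counts in all libraries, and no word of Ifnb1 occurs elsewhere. Ifnar2 shares 9.27% of its words with the overlapping Gm21970, which had 0 counts.

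Libraries held 37.9 to 45.6 M counts in sgRnf19a + IR, 34.3 to 42.2 M in control + IR, 63.8 to 67.9 M in sgRnf19a and 62.7 to 71.3 M in control. Annotated ribosomal RNA took 11.3 to 22.1% of counts in IR-treated libraries, against 0.223 to 0.696% in untreated ones. Rnf19a itself had 18.1, 11.6 and 37.7 CPM (counts scaled by library size) in sgRnf19a + IR, 4.37, 8.06 and 5.39 in control + IR, 27.5, 25.6 and 22.6 in sgRnf19a and 33.5, 29.4 and 21.5 in control; a guide that cuts DNA need not lower the transcript, so this level does not check the guide, and groups are named as labelled. Of 8 melanocyte markers, every library lacked counts for Tyr, Tyrp1, Mlana and Slc45a2, which are defining markers of a pigmented melanoma line. The other 4 had counts, chiefly Mitf, with a mean of 15.9 CPM in sgRnf19a and 11.4 in control. The 8 summed to 3.73 to 10.5 CPM in sgRnf19a + IR, 2.29 to 3.09 in control + IR, 15.8 to 16.4 in sgRnf19a and 9.53 to 13.8 in control. Of 8 immune markers, Cd3e had 0 counts, and the 8 summed to 11.6 to 37.6 CPM in sgRnf19a + IR, 1.48 to 14.7 in control + IR, 29.8 to 50.4 in sgRnf19a and 18.8 to 38.4 in control. Of the 5 immune markers tested, 0 were called higher with IR under either guide by edgeR, against 18.0% of all genes in sgRnf19a cells and 22.2% in control cells. In sgRnf19a cells 0 were called lower, against 17.6% of all genes, and 0 had an unadjusted p under 0.05. In control cells 2 were called lower, against 25.7% of all genes. They were Csf1r at -2.31 and Adgre1 at -1.52 (log2, edgeR, adjusted p = 0.0121 and 0.0462). Between the guides after IR, 0 of the 5 were called, where 21.0% of all genes were higher in sgRnf19a cells and 12.8% lower. Their median log2 fold change was 1.12 there, against 0.07 over all genes tested, and 1 had an unadjusted p under 0.05.

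Markers of other cell types were present, and a few were called between the guides by edgeR. After IR, 0 of 4 epithelial markers tested were higher in sgRnf19a cells and 2 lower. Of 5 fibroblast or endothelial ones 1 was higher and 1 lower, where 21.0% and 12.8% of all genes were. In untreated cells these counts were 0 and 0, and 0 and 1, where 3.02% of all genes were higher and 3.20% lower. The epithelial median after IR was -0.54 (log2), and 0.006 with each library corrected for transcript length and GC content. The 5 epithelial markers summed to 394 to 684 CPM in sgRnf19a + IR, 1043 to 1216 in control + IR, 559 to 572 in sgRnf19a and 658 to 830 in control. Nearly all of this was Krt8, Krt18 and Krt19. Epcam averaged from 0.829 CPM in control to 1.52 in sgRnf19a + IR, and Cdh1 had from 4 counts in control + IR to 14 in control. The 6 fibroblast or endothelial markers summed to 42.2 to 111 CPM in sgRnf19a + IR, 72.1 to 82.8 in control + IR, 34.1 to 73.5 in sgRnf19a and 66.4 to 90.1 in control. Col1a1 was the largest part, with means from 42.5 CPM in sgRnf19a to 67.6 in sgRnf19a + IR. Krt8, a keratin of simple epithelia, was lower in sgRnf19a than in control cells after IR, by -1.36 ± 0.22, with -0.75 ± 0.22 in untreated cells (log2; edgeR, adjusted p = 0.00137 and 0.0741). Pdgfrb, a receptor of fibroblasts and pericytes, was lower in sgRnf19a cells by -2.15 ± 0.14 after IR and by -1.94 ± 0.14 in untreated cells (log2; edgeR, adjusted p = 2.41e-06 and 7.58e-06). Cdh5, an endothelial cadherin, averaged 1.79 ± 0.58 CPM in sgRnf19a + IR and 0.225 ± 0.302 in control + IR (SD, n = 3 each), and was higher after IR by 3.03 ± 0.86 (log2; edgeR, adjusted p = 0.0190). Their part in the differences between the guides given below was not tested. Whether the cells are the labelled line was not tested either.

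By level per transcript length, in the deposited FPKM, Ifnb1 was the highest of the 9 members after IR and next to last before it. It averaged 26.4 ± 1.8 FPKM in sgRnf19a + IR and 22.6 ± 5.4 in control + IR (SD, n = 3 each), and no library of the next member reached that range. The next member was Jak1 at 11.5 ± 6.6 FPKM in sgRnf19a + IR and Ifngr2 at 11.7 ± 0.4 in control + IR. Jak1 led in untreated cells, at 33.4 ± 0.5 FPKM in sgRnf19a and 35.0 ± 4.6 in control. Jak2 followed in sgRnf19a cells with 19.4 ± 1.0 FPKM, whereas in control cells, with 10.2 ± 2.2, it came after Ifnar1 and Ifngr1 and its range overlapped that of Ifngr1. Tyk2 was the lowest receptor kinase in 3 groups, with 2.85 ± 0.81 FPKM in sgRnf19a + IR, 4.31 ± 0.08 in sgRnf19a and 3.01 ± 0.16 in control. In control + IR the lowest was Jak2, at 0.884 ± 0.182 FPKM, and its range overlapped that of Ifna4.

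A gene was called changed at an adjusted p under 0.05 in edgeR's quasi-likelihood test, adjusted by Benjamini-Hochberg over all 18183 genes. IR moved 5 of 9 members in sgRnf19a cells: Ifnb1, Ifna4 and Ifngr2 rose, where 18.0% of all genes rose, and Ifnar1 and Jak1 fell, where 17.6% fell. IR moved 7 members in control cells: Ifnb1, Ifna4, Ifnar2 and Ifngr2 rose, against 22.2% of all genes, and Ifnar1, Jak1 and Jak2 fell, against 25.7%. Between the guides after IR, Ifna4, Jak1 and Jak2 were higher in sgRnf19a cells, where 21.0% of all genes were higher, and Ifngr2 was lower, where 12.8% were lower. Between the guides in untreated cells no member was called by edgeR on all 12 libraries, although 4 of 9 had an unadjusted p under 0.05. Of all genes 3.02% were called higher and 3.20% lower. With only these 2 groups compared, edgeR called Jak2 and Tyk2 higher and Ifngr1 lower in sgRnf19a cells. No member was called for the difference between the IR responses, with 3 at an unadjusted p under 0.05; 0.544% of all genes were called higher and 0.137% lower.

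Ifnb1, the ligand that opens the type I response, rose with IR under both guides, and the test of a difference between the responses did not pass. It had 23.9, 28.4 and 22.4 CPM in sgRnf19a + IR, 16.3, 23.2 and 23.8 in control + IR, 0.214, 0.143 and 0.400 in sgRnf19a and 0.235, 0.143 and 0.205 in control. All 6 IR-treated libraries stood far above all 6 untreated ones, and within each of these sets the guides overlapped. The log2 fold change with IR was 6.62 ± 0.35 (SE) in sgRnf19a cells (edgeR, adjusted p = 6.05e-07) and 6.75 ± 0.36 in control cells (edgeR, adjusted p = 1.68e-06). The difference between these responses was -0.13 ± 0.44 on the log2 scale (edgeR, adjusted p = 0.906). A difference well above this SE, either way, could also go uncalled, as Jak2 did at 1.98 ± 0.59 in the same test (edgeR, adjusted p = 0.111). Between the guides, Ifnb1 differed by 0.24 ± 0.26 after IR and by 0.37 ± 0.36 in untreated cells on the log2 scale, and neither passed the test (edgeR, adjusted p = 0.534 and 0.694). In bulk RNA, more cells that make a transcript and more of it per cell cannot be told apart.

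Ifna4, the early alpha interferon, differed between the guides after IR where Ifnb1 did not pass the test. Its counts were 273, 143 and 252 in sgRnf19a + IR, 10, 32 and 41 in control + IR, 4, 7 and 0 in sgRnf19a and 0 in each control library. In CPM these were 6.34, 4.93 and 6.71 in sgRnf19a + IR and 0.355, 0.918 and 1.10 in control + IR. Each sgRnf19a + IR library thus lay above each control + IR library, and the untreated groups held fewer than the floor of 12 counts per group that was used here. The floor stands for 3 read pairs in long transcripts, where 1 pair is worth about 4 counts; in transcripts as short as Ifna4 a pair may be worth fewer, so how many reads its 11 counts in sgRnf19a stand for is not known. Ifna4 was 7.36-fold higher in sgRnf19a + IR than in control + IR by summed CPM, with a fitted log2 fold change of 2.91 ± 0.62 (edgeR, adjusted p = 0.00680). Against the floor of the untreated control group, which had 0 counts, Ifna4 was at least 16.0-fold higher in control + IR. That floor covers counting error only. In sgRnf19a cells, with 11 counts before IR, Ifna4 was 124-fold higher after IR by summed CPM, and the floor sets no lower bound for this ratio. Between the guides in untreated cells the fitted log2 difference was 4.50 ± 1.39 and missed the threshold (edgeR, adjusted p = 0.106). DESeq2 called it (4.37, adjusted p = 0.0163), as did edgeR without sgRnf19a library 3 (adjusted p = 0.0278), on counts under the floor in both groups. With both baselines under the floor the sizes of the Ifna4 responses cannot be set against each other: the fitted difference was -1.59 ± 1.12 in edgeR (adjusted p = 0.449) and 2.09 on log2(FPKM + 1) in limma (adjusted p = 0.00565).

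Set against Ifnb1 of the same library, Ifna4 made up a larger share in sgRnf19a + IR. The ratio of Ifna4 to Ifnb1 in FPKM was 0.354, 0.232 and 0.399 in sgRnf19a + IR, against 0.0268, 0.0518 and 0.0605 in control + IR, with no overlap. The means were 0.328 ± 0.087 and 0.0464 ± 0.0175 (SD, n = 3 each; exact 2-sided permutation test, p = 0.1, the smallest that 3 against 3 libraries allow). As both values come from the same library, this ratio does not depend on how libraries were scaled. GC content is 49.9% for Ifna4 and 43.7% for Ifnb1, and the part of transcript length or GC content in the ratio was not tested.

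**Figure D1:**
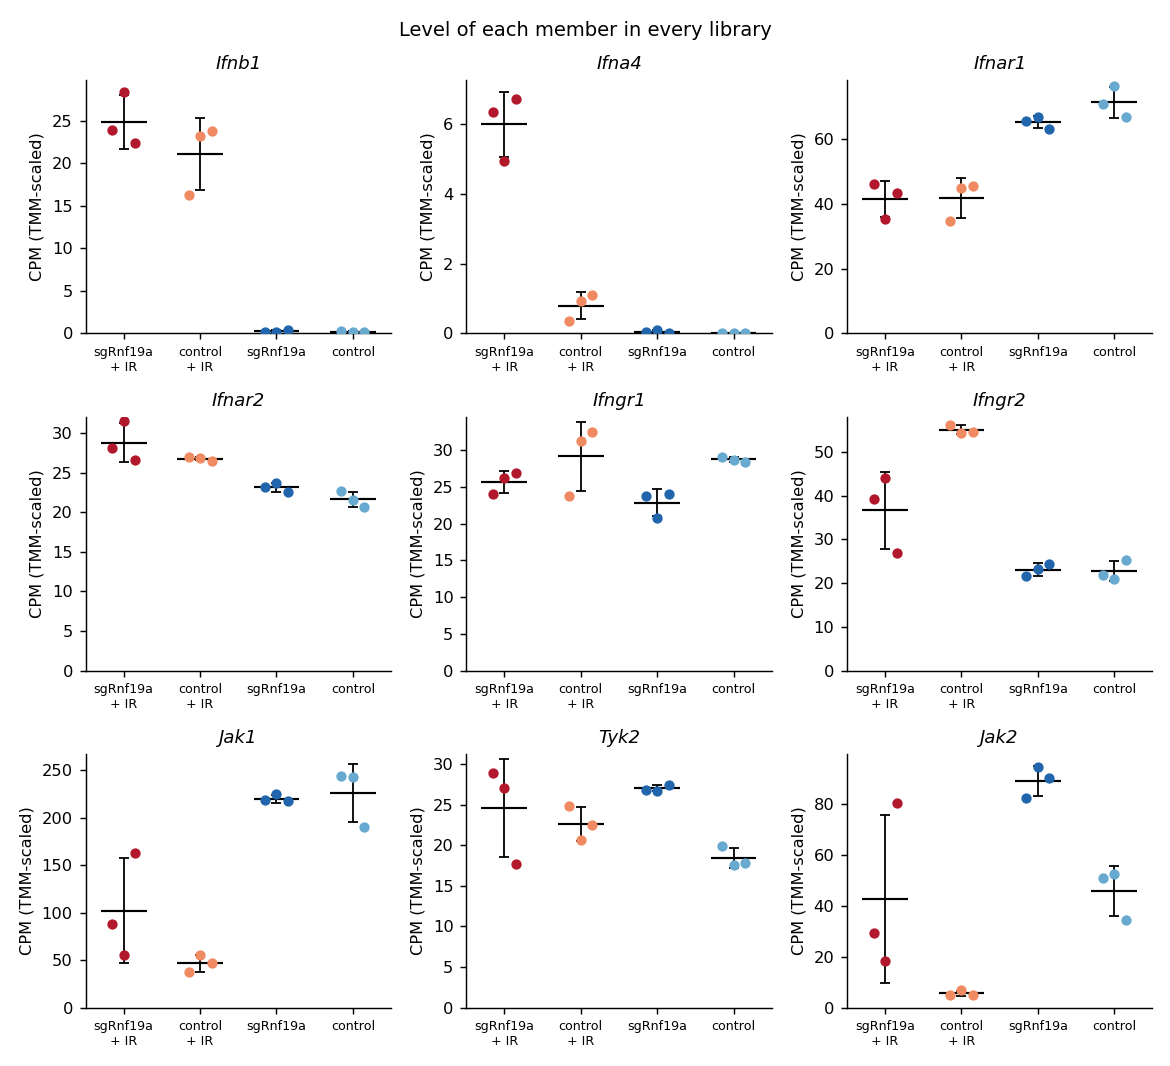
Level of each of the 9 members (vertical axis, TMM-scaled CPM, from 0) in the 4 groups (horizontal axis); points are libraries, wide lines the means and bars ± 1 SD (n = 3). Ifnb1 and Ifna4 are high after IR, Ifna4 chiefly in sgRnf19a + IR, and Jak2 is near the bottom in control + IR, at 4.96 to 6.77 CPM.

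Of the type I receptor, Ifnar1 fell with IR under both guides, while Ifnar2 rose in control cells by a small amount that did not hold under most alternatives. Ifnar1, the chain that holds Tyk2, had 46.0, 35.3 and 43.2 CPM in sgRnf19a + IR, 34.8, 45.0 and 45.6 in control + IR, 65.7, 66.6 and 63.1 in sgRnf19a and 70.8, 76.2 and 66.9 in control. Every IR-treated library was below every untreated one. Ifnar1 fell by 0.65 on the log2 scale in sgRnf19a cells (SE 0.14; edgeR, adjusted p = 0.00440) and fell by 0.77 in control cells (SE 0.14; edgeR, adjusted p = 0.000866), and these calls held under all 17 alternatives for each guide. Between the guides Ifnar1 differed by -0.01 ± 0.14 after IR and by -0.13 ± 0.14 in untreated cells (log2, edgeR, adjusted p = 0.972 and 0.731).

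Ifnar2, the chain that holds Jak1, had 28.2, 31.5 and 26.6 CPM in sgRnf19a + IR, 27.0, 26.8 and 26.5 in control + IR, 23.2, 23.7 and 22.6 in sgRnf19a and 22.7, 21.5 and 20.7 in control. All IR-treated libraries lay above all untreated ones, by a small margin. The log2 fold change with IR was 0.31 ± 0.11 in sgRnf19a cells (edgeR, adjusted p = 0.0510) and 0.31 ± 0.11 in control cells, where it was called (edgeR, adjusted p = 0.0422). That call was held by 3 of 17 alternatives, and the sign turned on the FPKM scale, at -0.16 on log2(FPKM + 1). The median over all genes tested on that scale was -0.34.

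The FPKM ratio of Ifnar1 to Ifnar2 was below 1 in each IR-treated library and above 1.5 in each untreated one. It averaged 0.818 ± 0.164 in sgRnf19a + IR and 1.58 ± 0.01 in sgRnf19a, and 0.876 ± 0.134 in control + IR and 1.85 ± 0.12 in control (SD, n = 3 each; exact permutation test, p = 0.1 for each pair, the smallest possible). Among untreated cells the ratio was lower in every sgRnf19a library than in every control library, at 1.57 to 1.59 against 1.75 to 1.98. After IR the guides overlapped.

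Of the interferon gamma receptor, Ifngr2 rose with IR while Ifngr1 did not pass the test. Ifngr2, the chain that holds Jak2, had 39.2, 43.9 and 26.9 CPM in sgRnf19a + IR, 56.2, 54.4 and 54.5 in control + IR, 21.6, 23.3 and 24.4 in sgRnf19a and 21.8, 20.9 and 25.3 in control. The 3 control + IR libraries were the highest of all 12, and sgRnf19a + IR library 4 was the closest to the untreated ones. The log2 fold change with IR was 0.67 ± 0.17 in sgRnf19a cells (edgeR, adjusted p = 0.00959) and 1.28 ± 0.17 in control cells (edgeR, adjusted p = 0.000143). The call in sgRnf19a cells was lost on log2(FPKM + 1), at 0.16 (limma, adjusted p = 0.371), and with only the 2 groups compared (edgeR, adjusted p = 0.0543). The median over all genes tested on that FPKM scale was -0.40. After IR, Ifngr2 was lower in sgRnf19a cells than in control cells, by -0.59 ± 0.17 (edgeR, adjusted p = 0.0200), a call lost without control + IR library 1 or library 5 (adjusted p = 0.0614 and 0.0555). It was also lost with only the 2 groups compared (edgeR, adjusted p = 0.0666).

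Ifngr1, the chain that binds the ligand and holds Jak1, had 24.0, 26.2 and 26.9 CPM in sgRnf19a + IR, 23.8, 31.2 and 32.5 in control + IR, 23.8, 20.7 and 24.0 in sgRnf19a and 29.1, 28.7 and 28.4 in control. In untreated cells every sgRnf19a library was below every control library, with a log2 fold change of -0.33 ± 0.14 that missed the threshold (edgeR, adjusted p = 0.240). With only the 2 groups compared it was -0.37 and was called (edgeR, adjusted p = 0.0321). With IR the log2 fold change was 0.17 ± 0.14 in sgRnf19a cells and 0.02 ± 0.14 in control cells (edgeR, adjusted p = 0.378 and 0.921). On the FPKM scale the value in control cells was -0.44 and was called (limma, log2(FPKM + 1), adjusted p = 0.0218). The median over all genes tested on that scale was -0.34 there, near the Ifngr1 value.

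Jak2, which serves the gamma receptor through Ifngr2, was the kinase with the largest change with IR in control cells and between the guides after IR; in sgRnf19a cells Jak1 fell with IR and Jak2 did not pass the test. It had 29.2, 18.4 and 80.2 CPM in sgRnf19a + IR, 5.01, 6.77 and 4.96 in control + IR, 82.4, 94.3 and 90.0 in sgRnf19a and 50.9, 52.3 and 34.5 in control. The control + IR libraries were the lowest and lay close together, the sgRnf19a + IR libraries were spread over a wide range, and every sgRnf19a library was above every control library with and without IR. Jak2 fell by 3.04 on the log2 scale with IR in control cells (SE 0.45; edgeR, adjusted p = 0.000225). In sgRnf19a cells the change with IR was -1.06 ± 0.41 and missed the threshold (edgeR, adjusted p = 0.0654); without sgRnf19a + IR library 4 it was -1.91 and was called (edgeR, adjusted p = 3.40e-05). In all, 7 of 17 alternatives called it lower, among them DESeq2 (-1.14, adjusted p = 0.0160), the length and GC correction (-0.70, adjusted p = 0.0470) and limma on log2(FPKM + 1) (-1.60, adjusted p = 0.00221). After IR, Jak2 was higher in sgRnf19a than in control cells by 2.93 ± 0.45 (log2; edgeR, adjusted p = 0.000848), a call held under all 17 alternatives, with values from 1.84 to 3.29. In untreated cells it differed by 0.95 ± 0.41 (log2, edgeR, adjusted p = 0.257). With only the 2 groups compared this difference was 0.91 and was called (edgeR, adjusted p = 0.00642).

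Jak1, the kinase both receptors share, had 87.7, 55.1 and 163 CPM in sgRnf19a + IR, 37.7, 55.2 and 47.4 in control + IR, 218, 224 and 217 in sgRnf19a and 244, 242 and 190 in control. Every IR-treated library was below every untreated one, and after IR the guides overlapped at 55.1 and 55.2 CPM. Jak1 fell by 1.11 on the log2 scale with IR in sgRnf19a cells (SE 0.31; edgeR, adjusted p = 0.0148) and fell by 2.27 in control cells (SE 0.32; edgeR, adjusted p = 0.000175). The first of these calls was lost without sgRnf19a + IR library 1 and with only the 2 groups compared (edgeR, adjusted p = 0.0648 and 0.0708). After IR, Jak1 was higher in sgRnf19a cells by 1.12 ± 0.31 (log2, edgeR, adjusted p = 0.0159), a call lost without control + IR library 1 (0.98, adjusted p = 0.0722). The call was also lost with only the 2 groups compared (1.13, edgeR, adjusted p = 0.0793) and on unfiltered log2(FPKM + 1) (0.88, limma, adjusted p = 0.123). In untreated cells the guides differed by -0.04 ± 0.30 (log2; edgeR, adjusted p = 0.972).

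Tyk2, the partner of Ifnar1, was called in no comparison by the main edgeR test, but some alternatives called it. It had 28.9, 27.0 and 17.6 CPM in sgRnf19a + IR, 24.8, 20.6 and 22.5 in control + IR, 26.8, 26.7 and 27.4 in sgRnf19a and 19.9, 17.6 and 17.8 in control. In untreated cells every sgRnf19a library was above every control library, with a log2 fold change of 0.55 ± 0.17 that missed the threshold (edgeR, adjusted p = 0.0977). DESeq2 called this difference (0.56, adjusted p = 0.0482). So did edgeR with only the 2 groups compared (0.51, adjusted p = 0.00763) and with a replicate block (0.51, adjusted p = 0.0132). With each library corrected for transcript length and GC content the difference was 0.67 ± 0.11 and was called (edgeR, adjusted p = 0.00166). The corrected test also called Tyk2 higher with IR in control cells, at 0.44 ± 0.11, and in sgRnf19a against control cells after IR, at 0.40 ± 0.11 (edgeR, adjusted p = 0.00649 and 0.0172). Upper-quartile scaling called it higher with IR in control cells too (0.51, edgeR, adjusted p = 0.0352). On log2(FPKM + 1) Tyk2 was lower with IR in sgRnf19a cells, at -0.48 (limma, adjusted p = 0.0111), where edgeR gave -0.14 ± 0.17 (adjusted p = 0.580). The median over all genes tested on that FPKM scale was -0.40 in the same comparison, near the Tyk2 value. Tyk2 lies opposite an antisense gene with 2 counts in all libraries, and Jak1 overlaps the end of Raver2 on the other strand, which had 185 counts, so neither could add much to these levels.

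**Figure D2:**
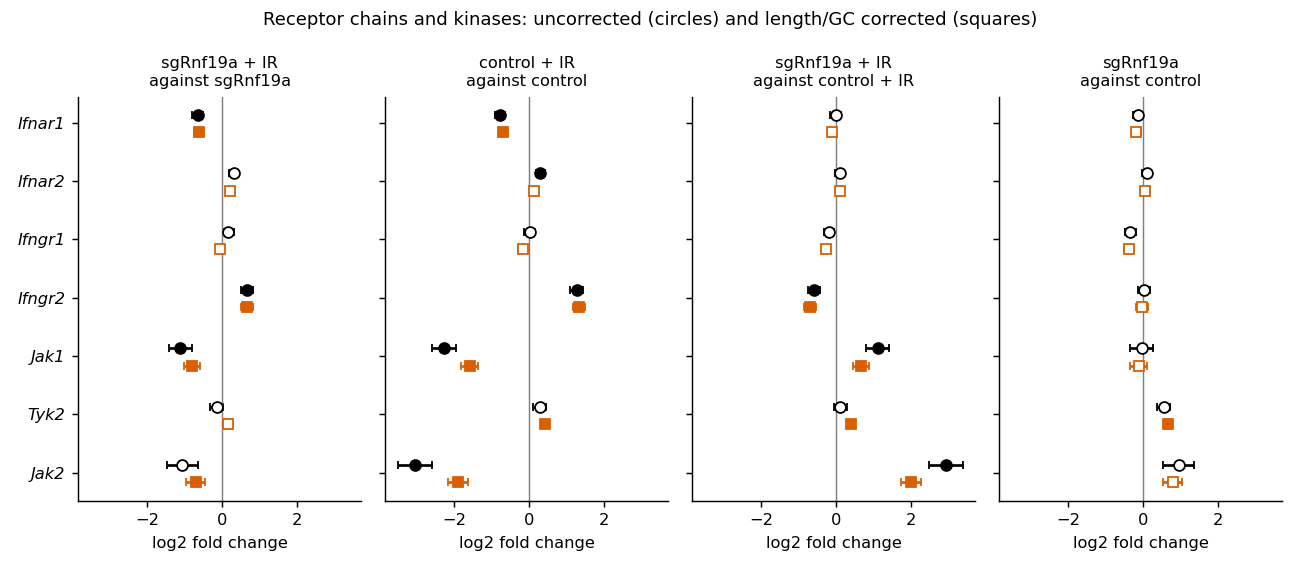
Log2 fold change (horizontal axis) of the 7 receptor chains and kinases (vertical axis) in 4 comparisons, without correction (circles) and with each library corrected for transcript length and GC content (squares); bars are ± 1 SE and filled symbols have an adjusted p under 0.05. Jak2 stands furthest from 0 in control cells with IR, at -3.04 without and -1.90 with the correction.

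The balance between long and short transcripts differed between libraries and moved with the levels of several members. It is the median log2 level of coding genes with transcripts over 6 kb minus that of genes with transcripts under 1 kb, over genes of at least 1 CPM. It averaged -0.29 ± 0.85 in sgRnf19a + IR, -1.42 ± 0.13 in control + IR, 2.04 ± 0.11 in sgRnf19a and 1.52 ± 0.36 in control (SD, n = 3 each). Within sgRnf19a + IR it was -0.33, -1.12 and 0.58 in libraries 1, 3 and 4, the same order as their Jak1 and Jak2 levels and the reverse of their Ifngr2 levels. Jak1 and Jak2 have long transcripts, of 4906 and 5030 bases, and Ifngr2 has 3708, while Ifnb1 and Ifna4 have 750 and 561.

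With a correction of each library for transcript length and GC content, the Jak2 fall with IR in control cells was smaller, at -1.90 ± 0.27 (log2; edgeR, adjusted p = 0.000165), and so was the difference between the guides after IR, at 2.0 ± 0.3 (edgeR, adjusted p = 0.000243). The Jak1 values were -1.58 ± 0.23 with IR in control cells and 0.67 ± 0.22 between the guides after IR (edgeR, adjusted p = 0.000172 and 0.0409). Ifngr2 moved little, with 1.33 ± 0.16 and -0.69 ± 0.15 (edgeR, adjusted p = 6.00e-05 and 0.00589). Ifnb1 rose by 5.95 ± 0.32 in sgRnf19a cells and by 6.55 ± 0.33 in control cells, and Ifna4 was higher by 3.08 ± 0.63 between the guides after IR (log2; edgeR, adjusted p = 1.82e-07, 2.69e-07 and 0.00516). The part of transcript length or RNA quality in these results was not tested beyond this correction.

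**Figure D3:**
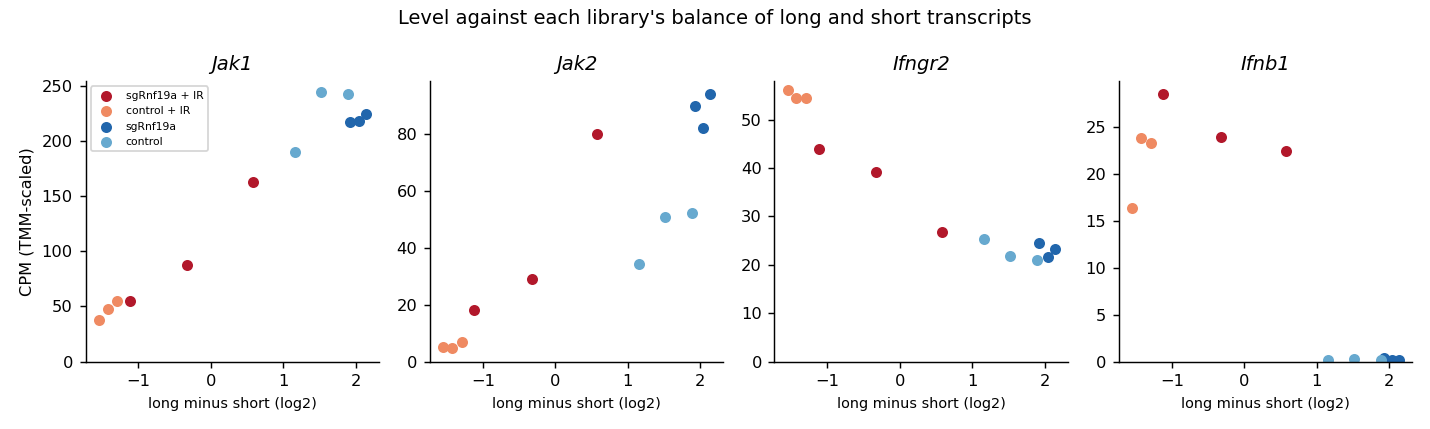
Level of Jak1, Jak2, Ifngr2 and Ifnb1 (vertical axis, TMM-scaled CPM, from 0) against the balance of long and short transcripts in each of the 12 libraries (horizontal axis, log2 difference), coloured by group. Over the 6 IR-treated libraries, Jak1 lies between 37.7 and 163 CPM and is high where the balance is high, whereas Ifngr2 is low there.

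Ratios within a library set the kinases beside each other in FPKM. The ratio of Jak1 to Jak2 was 1.86 ± 0.39 in sgRnf19a + IR, against 5.88 ± 0.72 in control + IR, and 1.73 ± 0.10 in sgRnf19a, against 3.47 ± 0.32 in control (SD, n = 3 each). With and without IR, every sgRnf19a library was below every control library (exact permutation test, p = 0.1 for each, the smallest possible). Both transcripts are of nearly the same length, 4906 bases for Jak1 and 5030 for Jak2, but their GC content is 47.6% and 44.3%. The correction for length and GC content moved these genes by unequal amounts. With IR in control cells Jak1 went from -2.27 to -1.58 and Jak2 from -3.04 to -1.90 (log2). Between the guides after IR, the Jak2 difference also shrank by more than that of Jak1. The part of transcript length or GC content in this ratio was not tested. The ratio of Jak2 to Tyk2 ranged from 0.928 to 6.21 in sgRnf19a + IR, against 0.274 to 0.448 in control + IR, and from 4.19 to 4.83 in sgRnf19a, against 2.64 to 4.07 in control. The ratio of Ifngr1 to Ifngr2 averaged 0.973 ± 0.302 in sgRnf19a + IR, 0.701 ± 0.124 in control + IR, 1.31 ± 0.14 in sgRnf19a and 1.69 ± 0.18 in control.

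**Figure D4:**
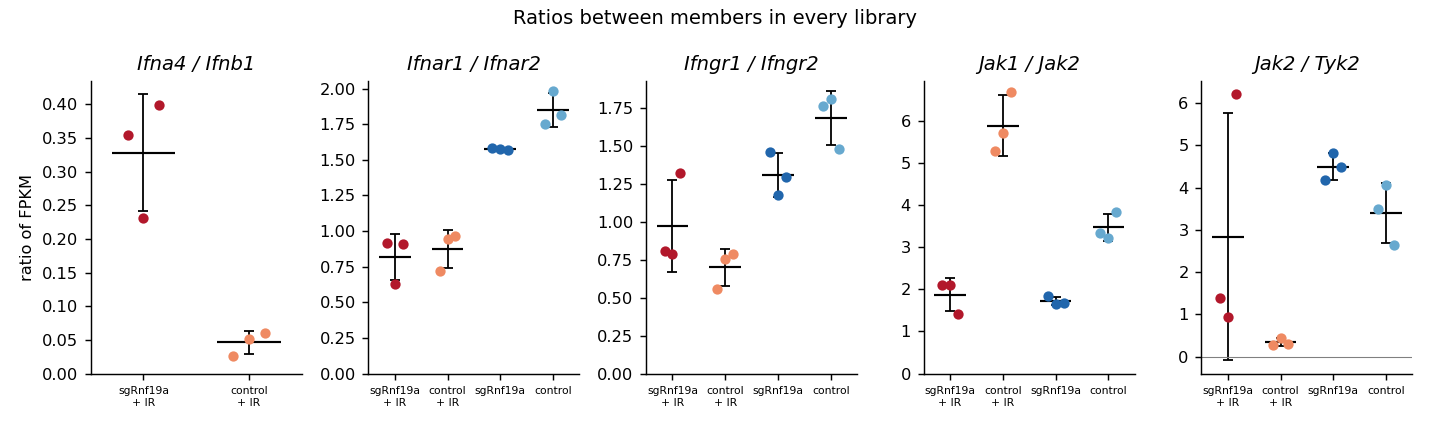
Ratio of FPKM between pairs of members (vertical axes) in every library of the 4 groups (horizontal axis), with means and ± 1 SD (n = 3); Ifna4 over Ifnb1 is shown for IR-treated libraries only. Ifna4 over Ifnb1 is 0.232 to 0.399 in sgRnf19a + IR and 0.0268 to 0.0605 in control + IR, and Jak1 over Jak2 is lower in sgRnf19a libraries than in control libraries with and without IR.

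The IR responses under the 2 guides were set against each other in the same fit, and no member passed. The 3 with an unadjusted p under 0.05 were Jak2, at 1.98 ± 0.59, Jak1, at 1.16 ± 0.43, and Ifngr2, at -0.61 ± 0.24 (log2, response in sgRnf19a cells minus response in control cells; edgeR, adjusted p = 0.111, 0.164 and 0.178). The mean levels of these genes in sgRnf19a + IR lay between those of control + IR and those of either untreated group. Without sgRnf19a + IR library 3 all of them were called, with Jak2 at 2.34 (edgeR, adjusted p = 0.0116), and DESeq2 called Jak2 with all libraries (1.97, adjusted p = 0.0131).

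Of the interferon genes listed, Ifnb1 and Ifna4 alone passed the filter on low counts. Of 19 other interferon genes, all in the count table, 12 had 0 counts in every library, among them Ifng, the ligand of the gamma receptor, and Ifna1, Ifna5 and Ifna6. The other 7 had at most 31 counts summed over a group. Ifnz had 31 counts in sgRnf19a + IR, 19 in control + IR, 10 in sgRnf19a and 20 in control. Ifna2 had 18 counts in sgRnf19a + IR, 4 in control + IR and 0 in both untreated groups. No RNA of interferon gamma was thus detected for the receptor chains described above, at a depth where 12 counts over a group correspond to 0.0516 CPM in control.

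Among the carriers of the signal below the receptors, Stat2, Irf9 and Usp18 were higher in sgRnf19a cells before any treatment. In untreated cells 4 of 12 listed carriers and brakes were higher in sgRnf19a cells and 1 was lower, where 3.02% of all genes were higher and 3.20% lower. The median log2 fold change was 0.07 over the 12, against 0.03 over all genes tested. Stat2, a transcription factor of the type I response, had 81.7, 80.9 and 78.4 CPM in sgRnf19a, against 22.8, 18.6 and 15.6 in control, with no overlap. Its log2 fold change was 2.08 ± 0.19, and Irf9, which binds DNA together with it, was higher by 1.72 ± 0.18 (edgeR, adjusted p = 4.24e-05 and 8.71e-05). Usp18, which blocks signalling at Ifnar2, was higher by 1.87 ± 0.16 (edgeR, adjusted p = 1.82e-05). In these untreated cells Ifnb1 had 56 counts over the sgRnf19a libraries and 45 over the control libraries, and Ifna4 had 11 and 0. The part of either ligand in these differences was not tested.

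After IR, 9 of the 12 were higher in sgRnf19a than in control cells and 2 lower, with a median of 0.77 against 0.07 over all genes. Of all genes 21.0% were higher and 12.8% lower. Usp18 had 1097, 1085 and 918 CPM in sgRnf19a + IR, 103, 152 and 123 in control + IR, 67.9, 57.1 and 63.3 in sgRnf19a and 16.7, 17.1 and 17.6 in control. It rose with IR by 4.04 ± 0.17 in sgRnf19a cells and by 2.88 ± 0.16 in control cells, and the responses differed by 1.16 ± 0.21 (log2; edgeR, adjusted p = 1.23e-07, 1.91e-06 and 0.0341). Socs1, which inhibits the receptor kinases, rose with IR by 3.14 ± 0.23 in sgRnf19a cells and by 2.22 ± 0.23 in control cells (log2; edgeR, adjusted p = 6.84e-06 and 5.64e-05). With IR, 5 of the 12 rose and 2 fell in sgRnf19a cells (18.0% and 17.6% of all genes), and 7 rose and 4 fell in control cells (22.2% and 25.7%). With the correction for length and GC content, 9 rose and 1 fell in sgRnf19a cells, and 6 rose and 2 fell in control cells. Of 18159 genes in the corrected test, 3396 rose and 3339 fell in sgRnf19a cells, and 3905 rose and 3974 fell in control cells.

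Of 15 sensors, kinases and factors that act upstream of Ifnb1, 5 were higher and 0 lower in untreated sgRnf19a cells than in control cells by edgeR, where 7 had an unadjusted p under 0.05. Of all genes 3.02% were called higher and 3.20% lower. Cgas, the sensor of cytosolic DNA, had 15.4, 12.5 and 16.4 CPM in sgRnf19a, against 1.59, 1.84 and 1.75 in control. Its log2 fold change was 3.09 ± 0.30 in untreated cells and 5.53 ± 0.35 after IR (edgeR, adjusted p = 5.35e-05 and 1.69e-06). Irf7, which drives alpha interferon genes, was higher by 2.75 ± 0.18 in untreated cells and by 2.45 ± 0.18 after IR (log2; edgeR, adjusted p = 4.66e-06 and 4.30e-06). The RNA sensors Ifih1 and Rigi were higher by 2.23 ± 0.48 and 1.75 ± 0.38 in untreated cells (log2; edgeR, adjusted p = 0.0152 and 0.0177). Sting1 and Irf3, the adaptor and the factor below Cgas, differed by -0.16 and 0.02 in untreated cells and did not pass (log2; edgeR, adjusted p = 0.519 and 0.975).

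After IR, 6 of these 15 were higher and 3 lower in sgRnf19a than in control cells, where 21.0% of all genes were higher and 12.8% lower. Irf1 and Jun moved with IR under both guides but by different amounts. Irf1 had 332, 306 and 311 CPM in sgRnf19a + IR, 108, 145 and 130 in control + IR, 61.8, 62.1 and 56.9 in sgRnf19a and 51.0, 54.9 and 50.4 in control, and its IR responses differed by 1.10 ± 0.18 (log2; edgeR, adjusted p = 0.0255). Jun, part of the factor that binds the Ifnb1 enhancer with Atf2, had 84.6, 90.7 and 57.6 CPM in sgRnf19a + IR and 269, 316 and 276 in control + IR, and its responses differed by -1.47 ± 0.24 (log2; edgeR, adjusted p = 0.0255). With IR, 6 of the 15 rose and 4 fell in sgRnf19a cells (18.0% and 17.6% of all genes), and 6 rose and 5 fell in control cells (22.2% and 25.7%).

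**Figure D5:**
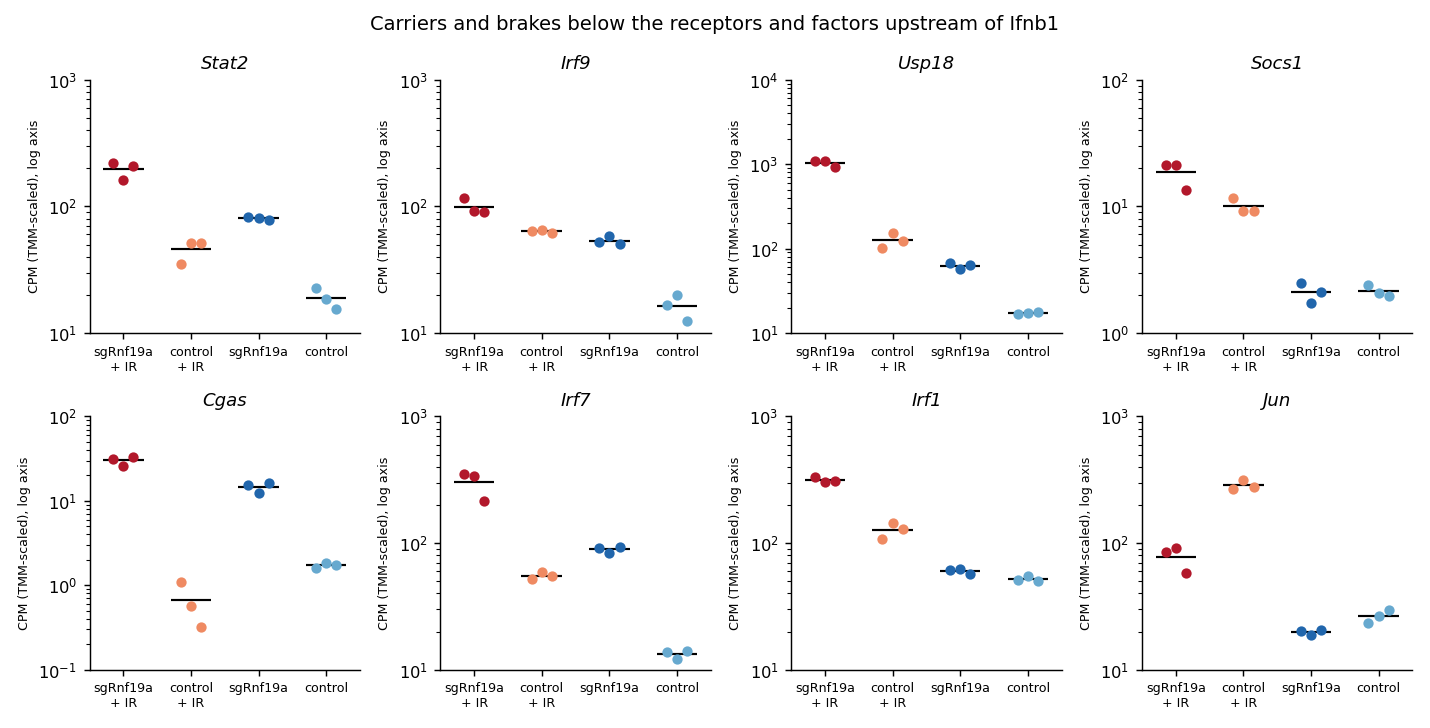
Level of 4 carriers and brakes of the signal (Stat2, Irf9, Usp18, Socs1) and 4 genes upstream of Ifnb1 (Cgas, Irf7, Irf1, Jun) in every library (vertical axes, TMM-scaled CPM on a log scale) by group (horizontal axis); points are libraries and lines their means (n = 3). Stat2, Usp18, Cgas and Irf7 are higher in every sgRnf19a library than in every control library with and without IR, and Jun is highest in control + IR, at 269 to 316 CPM.

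Of 22 other cytokine receptor chains that use these kinases, with Jak3, 17 were tested. With IR, 1 rose and 3 fell in sgRnf19a cells, where 18.0% of all genes rose and 17.6% fell, and 2 rose and 9 fell in control cells, where 22.2% rose and 25.7% fell. Lifr, a receptor chain of the leukaemia inhibitory factor, fell by 2.79 on the log2 scale in control cells (SE 0.38; edgeR, adjusted p = 0.000160), and fell by 0.96 there with the correction for length and GC content. With the correction the counts were 5 higher and 3 lower in sgRnf19a cells and 3 higher and 7 lower in control cells. Over all 18159 genes in that test they were 3396 and 3339 in sgRnf19a cells, and 3905 and 3974 in control cells. Il6st, the shared chain of the interleukin-6 family, fell by 1.28 in control cells (edgeR, adjusted p = 0.000180), but the corrected value was 0.06 and did not pass. Between the guides 7 were higher and 3 lower after IR, where 21.0% of all genes were higher and 12.8% lower. Among the 7 was Il13ra1, a chain of the interleukin-13 receptor, higher by 2.23 ± 0.33 (log2, edgeR, adjusted p = 0.000724). Among the 3 was Epor, the erythropoietin receptor, with -1.77 ± 0.26 (log2, edgeR, adjusted p = 0.000591). In untreated cells 0 were higher and 2 lower, with 4 at an unadjusted p under 0.05, and 3.02% of all genes were higher and 3.20% lower. The 2 were Lifr at -1.64 ± 0.36 and Epor at -0.98 ± 0.25 (log2, edgeR, adjusted p = 0.0181 and 0.0357).

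The genes whose pattern was most like each member's were ranked by Pearson's r of log2(CPM + 0.5) over the 12 libraries, among 10750 named genes of at least 2 CPM. The 12 libraries fall into groups, so r mostly reflects the order of the 4 groups. For Ifnb1 the highest were the pseudogene Ubb-ps (0.993), Bloc1s6 (0.992), Ormdl2 (0.990), Prim2 (0.989) and Ppp1r15a (0.989). Ifna4 was most like Irf1 (0.986) and Bid (0.984), both with every sgRnf19a + IR library above every control + IR library. Bid, a trigger of cell death, had 84.7, 76.5 and 80.8 CPM in sgRnf19a + IR, against 35.6, 47.8 and 49.3 in control + IR. Jak1 was most like Rbbp7 and Nedd4 (0.998 each), Jak2 like Eif3c (0.995), Ifngr2 like Fam104a (0.995) and Rnf121 (0.994), Ifnar1 like Ddx17 (0.989) and Atp11a (0.985), and Ifnar2 like Tmem192 (0.977) and Cdc45 (0.976). Ifngr1 had the weakest likeness, with Ywhaq at 0.876, and Tyk2 was most like Eps8l2 (0.973) and Rpap1 (0.940). Among the members themselves, Jak1 and Ifngr2 ran most opposite to each other, with r = -0.989, and Jak1 and Jak2 ran together, with r = 0.922.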

How the data were processed

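RNA-seq libraries of 12 samples were read as pairs of 37 bp after ribosomal RNA depletion, strand-marked library preparation and 12 PCR cycles, per the labels' protocols. The authors deposited estimated counts per gene, not normalized, and FPKM values, per the file headers. In transcripts over 2 kb low counts piled up at multiples of 4 (4 occurred 5958 times, 3 and 5 989 and 1000 times), so 1 read pair is worth about 4 counts there; in transcripts up to 1 kb there was no such clear pile-up (3615 times 4, 3026 times 3). Bowtie2, HTSeq, DESeq2, mm10 and GRCm39 are named in the submitters' processing notes; no source used here gives their versions, their roles or the strand setting. Another 12 per-sample columns repeat the counts and were not used.

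The main test was edgeR 4.0.16 in R 4.3.3: filterByExpr (count of at least 10, total of at least 15), TMM scaling, and a robust glmQLFit of the 4 group means on all 12 libraries with a 2-sided glmQLFTest and Benjamini-Hochberg adjustment over all 18183 genes. The SE is the size of a log2 fold change divided by the square root of F. CPM are TMM-scaled. The scripts were tested on simulated data. Alternatives were the DESeq2 test (version 1.42.0), edgeR with DESeq2's or upper-quartile scaling, unfiltered genes, a filter of 1 CPM in 3 libraries, counts divided by 4, per-library splines for length and GC content with 5 degrees of freedom, limma 3.58.1 on log2(FPKM + 1) or log2(FPKM + 0.1) above a mean of 0.5 FPKM or unfiltered, only the 2 groups compared, a replicate block and leaving out each library. Fold changes on FPKM understate low genes.

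Named are all 9 members, the 5 genes most like Ifnb1 and the 2 most like each other member, and up to 4 called genes per list with the smallest p, of which a few genes are not reported here. Sting1, Irf3, single interferon genes and the ratios were added after values were seen. The members and lists were chosen with earlier results of these data known.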

Additional observations from a re-analysis of the deposited data

How the results depend on the processing

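Over the alternatives, 755 member fold changes kept their direction and side of the threshold, 23 lost and 31 gained a call, and 8 turned sign. The number of members called was 5 for IR in sgRnf19a cells and 3 with only the 2 groups compared. For the guide in untreated cells it was 0, against 2 with DESeq2, 1 with the length and GC correction and 3 with only the 2 groups compared (Jak2, Tyk2 and Ifngr1). For the guide in IR-treated cells it was 4, against 2 with only the 2 groups compared. For the difference between IR responses it was 0, against 1 with DESeq2 and 1 on log2(FPKM + 1) with or without the filter. Leaving out each library gave 4 to 7 members for IR in sgRnf19a cells, 6 to 6 for IR in control cells, 2 to 4 for the guide after IR (2 without control + IR library 1), 0 to 1 in untreated cells (1 without sgRnf19a library 3) and 0 to 3 for the difference (3 without sgRnf19a + IR library 3). A replicate block over the 6 untreated libraries called 3. Same-numbered libraries deviated together by r = -0.178, 0.127 and 0.201, and differently numbered ones by -0.260 to 0.161. With 3 libraries per guide, these values cannot decide whether the numbers pair them.

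Signs turned for Ifnar2 with IR in control cells (-0.16 on log2(FPKM + 1), -0.18 on log2(FPKM + 0.1), -0.16 without the filter), Ifngr1 there (-0.44, -0.48 and -0.44), the Ifna4 difference (2.09 with or without the filter) and Il6st under the length and GC correction (0.059 in control and 0.25 in sgRnf19a cells). The cause was not tested. Upper-quartile scaling moved the median of all genes with IR in control cells to 0.19, against -0.02, and log2(FPKM + 1) to -0.34. With IR in sgRnf19a cells, log2(FPKM + 1) put the median at -0.40, against -0.05 for the same genes in the main test. Depth limits Ifna4 in untreated cells, where 12 counts are the floor.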
